A study of Camellia sinensis and Camellia sinensis var. assamica with 18 samples.

Results

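The loci of proline synthesis and breakdown were examined in leaves of 2 tea cultivars through cold acclimation and de-acclimation. They were taken from the deposited table as the loci CSS022477, a pyrroline-5-carboxylate synthetase, and CSS005626, a delta-pyrroline-5-carboxylate dehydrogenase, together with every locus whose product description held "proline dehydrogenase" or "pyrroline-5-carboxylate". This gave 6 of 41021 loci, 1 of them a synthetase, 1 a reductase, 2 proline dehydrogenases and 2 pyrroline-5-carboxylate dehydrogenases. CSS022477 and CSS005626 had been picked for their levels in these libraries, so their values are described without a test. The names are those of the best protein matches in other species, and both proline dehydrogenase loci, like both dehydrogenase loci of the last step, carry the same description. Reads from near-identical copies cannot be told apart here. The study mapped the reads of both cultivars to the same tea reference genome. The source of that genome is labelled CSS, the study's short form for Camellia sinensis var. sinensis. A cultivar whose sequence differs from the reference at a locus may lose counts there. Such loss would be likelier in the cultivar of the assamica variety, and would make its levels look lower than those of the other cultivar. The part of such loss in differences between the cultivars was not tested.

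Shuchazao (SCZ) is a cold-tolerant cultivar of Camellia sinensis, and Yinghong 9 (YH9), of the assamica variety, is a cold-sensitive one. Tissue culture seedlings 4 to 5 cm tall were sampled at day 0 under 25 °C days and 20 °C nights (non-acclimation, NA). They were sampled at day 14 (cold acclimation, CA) after 7 days at 10 °C and 4 °C and 7 days at 4 °C and 0 °C, and at day 21 (de-acclimation, DA) after 7 days back at 25 °C and 20 °C. Each of the 6 groups had 3 libraries, 18 in all. None of them came from seedlings kept at 25 °C and 20 °C up to day 14 or day 21. Temperature and days in culture therefore cannot be told apart in comparisons of stages, and phrases on cold or warmth below name the stage. The study calls them biological replicates, but the sources used here do not tie each library to its own plant, so p-values measure the spread between these libraries, which may be in part technical. The study also reports separate independent experiments for each cultivar, and which library came from which experiment is not given.

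In plants, pyrroline-5-carboxylate synthetase (P5CS) turns glutamate into pyrroline-5-carboxylate (P5C), the step held to set the rate of proline synthesis, and P5C reductase (P5CR) turns P5C into proline. Breakdown runs in the mitochondrion, where proline dehydrogenase (ProDH) returns proline to P5C and P5C dehydrogenase (P5CDH) returns P5C to glutamate. Leaves of many species gather proline as a compatible solute under cold, drought and salt, and break it down once the stress ends.

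Total estimated counts per library ranged from 47291392 to 78305612. The library SCZ_CA replicate 2 correlated least with its own group (mean r = 0.887 on log values across genes), with SCZ_NA replicate 1 next at 0.890. Several values that rest on SCZ_CA replicate 2 are given with and without it. Levels are in FPKM, the fragments of a transcript scaled to its length and to the mapped fragments of its library. Unless stated, log2 fold changes come from the estimated counts, scaled between libraries in another way, and can differ from ratios of FPKM. For SCZ_CA vs. YH9_CA the median log2 fold change over all loci was 0.02 on the scaled counts and −0.17 on log2(FPKM + 1). A locus was called up- or down-regulated at an adjusted p below 0.05 (edgeR quasi-likelihood test, Benjamini-Hochberg over 29019 loci) and a change of at least 2-fold. Of the 6 loci, 5 reached the filter of 1 FPKM in 3 libraries, and CSS005626 did so through SCZ_CA alone.

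P5CS, the first enzyme of synthesis, was the most abundant of the 6 loci in SCZ_CA leaves. In SCZ, CSS022477 had 7.31, 14.5 and 14.9 FPKM at NA, 24.2, 66.1 and 23.6 FPKM at CA and 13.5, 13.5 and 10.1 FPKM at DA. All 3 SCZ_CA libraries lay above all other SCZ libraries, and replicate 2 stood far above the other two. In YH9, the same locus had 11.0, 14.9 and 20.8 FPKM at NA, 16.3, 17.1 and 16.7 FPKM at CA and 19.2, 13.9 and 18.2 FPKM at DA. The 3 YH9 stages overlapped, and the YH9_CA libraries fell inside the range of YH9_NA. The group means were 38.0 ± 24.4 FPKM in SCZ_CA, 17.1 ± 2.82 in YH9_DA, 16.7 ± 0.381 in YH9_CA, 15.6 ± 4.91 in YH9_NA, 12.4 ± 1.97 in SCZ_DA and 12.3 ± 4.29 in SCZ_NA (SD, n = 3 each), and only the first of these stood apart from its neighbour in every library. The log2 fold change was 1.80 for SCZ_CA vs. SCZ_NA and 0.09 for YH9_CA vs. YH9_NA. Without SCZ_CA replicate 2 that of CSS022477 for SCZ_CA vs. SCZ_NA was 1.17. It was −1.80 for SCZ_DA vs. SCZ_CA, or −1.16 without that library.

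The study measured CSS022477 by RT-qPCR too, and its primer pair is printed as the study lists it. Whether the pair matches this locus alone was not checked.
CSS022477 forward: gacaatgacagtttagcagc
CSS022477 reverse: aaaagtaatcgccccttcat
Both primers are 20 bases long, with 45% G and C in the forward and 40% in the reverse.

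**Figure D1:**
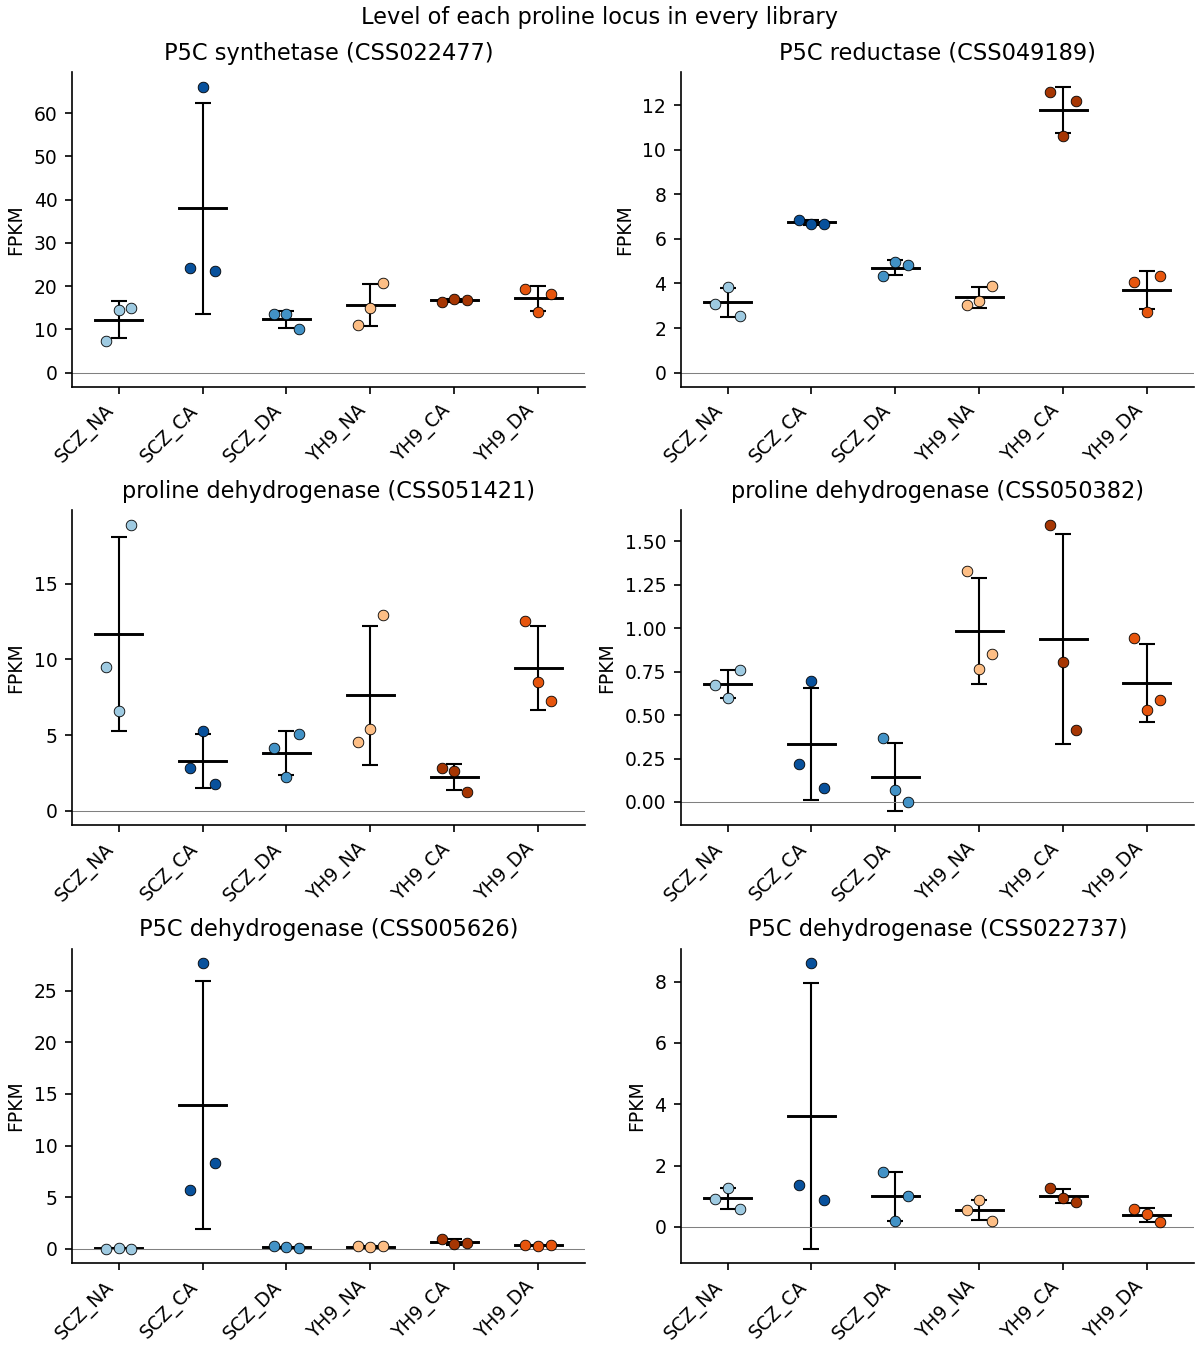
FPKM of the 6 proline loci in each of the 18 libraries, by cultivar and stage; points are libraries, the long bar is the group mean and the whiskers are 1 SD (n = 3). P5CR is high in both cultivars at CA, while P5CS and CSS005626 are high in SCZ_CA alone, with replicate 2 at 66.1 and 27.7 FPKM.

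P5CR, the last enzyme of synthesis, rose in the cold in both cultivars. In SCZ, CSS049189 had 3.09, 3.83 and 2.54 FPKM at NA, 6.84, 6.69 and 6.68 FPKM at CA and 4.34, 4.97 and 4.82 FPKM at DA. In YH9 the reductase had 3.02, 3.22 and 3.90 FPKM at NA, 12.6, 10.6 and 12.2 FPKM at CA and 4.08, 2.73 and 4.34 FPKM at DA. In neither cultivar did a CA library overlap with NA or DA, and each YH9_CA library was above each SCZ_CA library. The log2 fold change was 1.23 for SCZ_CA vs. SCZ_NA (SE 0.24, adjusted p = 0.00099) and 1.77 for YH9_CA vs. YH9_NA (SE 0.25, adjusted p = 0.0001). The responses of the cultivars to cold were not shown to differ (interaction −0.55, SE 0.34, adjusted p = 0.409). The SCZ call was lost where only the groups compared set the spread (adjusted p = 0.0518) and by limma on log2(FPKM + 1), at 0.91. In SCZ_CA leaves P5CR averaged 6.74 ± 0.0907 FPKM, against 11.8 ± 1.04 FPKM in YH9_CA leaves (SD, n = 3 each), and the difference of −0.59 on the log2 scale missed the threshold (SE 0.24, adjusted p = 0.0689).

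On return to warmth P5CR fell in YH9, where the log2 fold change for YH9_DA vs. YH9_CA was −1.81 (SE 0.25, adjusted p = 0.00011). For SCZ_DA vs. SCZ_CA it was −0.71 (SE 0.24, adjusted p = 0.0302), under the 2-fold limit. These changes differed by 1.10 on the log2 scale (interaction SE 0.34), which edgeR did not call (adjusted p = 0.114). By DESeq2 that interaction had an adjusted p of 0.0196 and by limma on log2(FPKM + 1) of 0.0288. The SCZ_DA libraries stayed above all SCZ_NA libraries, while YH9_DA overlapped with YH9_NA. Neither was called, with log2 fold changes of 0.52 for SCZ_DA vs. SCZ_NA (adjusted p = 0.246) and −0.04 for YH9_DA vs. YH9_NA (adjusted p = 0.991).

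ProDH, which opens proline breakdown, fell in the cold in both cultivars. In SCZ, the abundant locus CSS051421 had 9.50, 6.61 and 18.9 FPKM at NA, 2.82, 5.27 and 1.75 FPKM at CA and 4.14, 2.25 and 5.05 FPKM at DA. Every SCZ_CA and SCZ_DA library was below every SCZ_NA library, and the CA and DA libraries overlapped. In YH9, CSS051421 had 4.56, 5.37 and 12.9 FPKM at NA, 2.81, 2.66 and 1.24 FPKM at CA and 12.5, 8.50 and 7.23 FPKM at DA. The YH9_CA libraries lay below all others of that cultivar, and YH9_DA overlapped with YH9_NA.

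The log2 fold change of CSS051421 was −1.71 for SCZ_CA vs. SCZ_NA (SE 0.52, adjusted p = 0.0151) and −1.76 for YH9_CA vs. YH9_NA (SE 0.52, adjusted p = 0.0172). It rose again in YH9, by 1.91 for YH9_DA vs. YH9_CA (SE 0.52, adjusted p = 0.0121). In SCZ the value was 0.07 for SCZ_DA vs. SCZ_CA (SE 0.50, adjusted p = 0.934) and −1.64 for SCZ_DA vs. SCZ_NA (SE 0.52, adjusted p = 0.0889). The difference between the cultivars on return to warmth was −1.84 and did not pass (SE 0.72, adjusted p = 0.212). These calls rested on few libraries. The fall in SCZ was not called without SCZ_NA replicate 3 (adjusted p = 0.0714), SCZ_CA replicate 1 (0.0501) or SCZ_CA replicate 3 (0.0582), nor where only the groups compared set the spread (0.0621), and was −2.23 (adjusted p = 0.00752) without SCZ_CA replicate 2. The fall in YH9 was not called without YH9_NA replicate 3 (adjusted p = 0.0987) or YH9_CA replicate 3 (0.0739), nor the later rise without YH9_CA replicate 3 (0.0546).

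The second ProDH locus, CSS050382, lies on Scaffold411 from 3142771 to 3145906 on the plus strand of the tea genome used by the study. It had between 0.599 and 0.762 FPKM in SCZ_NA, 0.0807 and 0.695 in SCZ_CA and 0 and 0.369 in SCZ_DA. Its YH9 libraries had between 0.765 and 1.33 FPKM at NA, 0.412 and 1.60 at CA and 0.527 and 0.945 at DA. This copy was low, with 0 to 160 estimated counts in a library, and was left out of the test by the filter. With the filter lifted, its log2 fold change was −0.97 for SCZ_CA vs. SCZ_NA (SE 0.95, adjusted p = 0.493) and −0.14 for YH9_CA vs. YH9_NA (SE 0.94, adjusted p = 1.0).

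**Figure D2:**
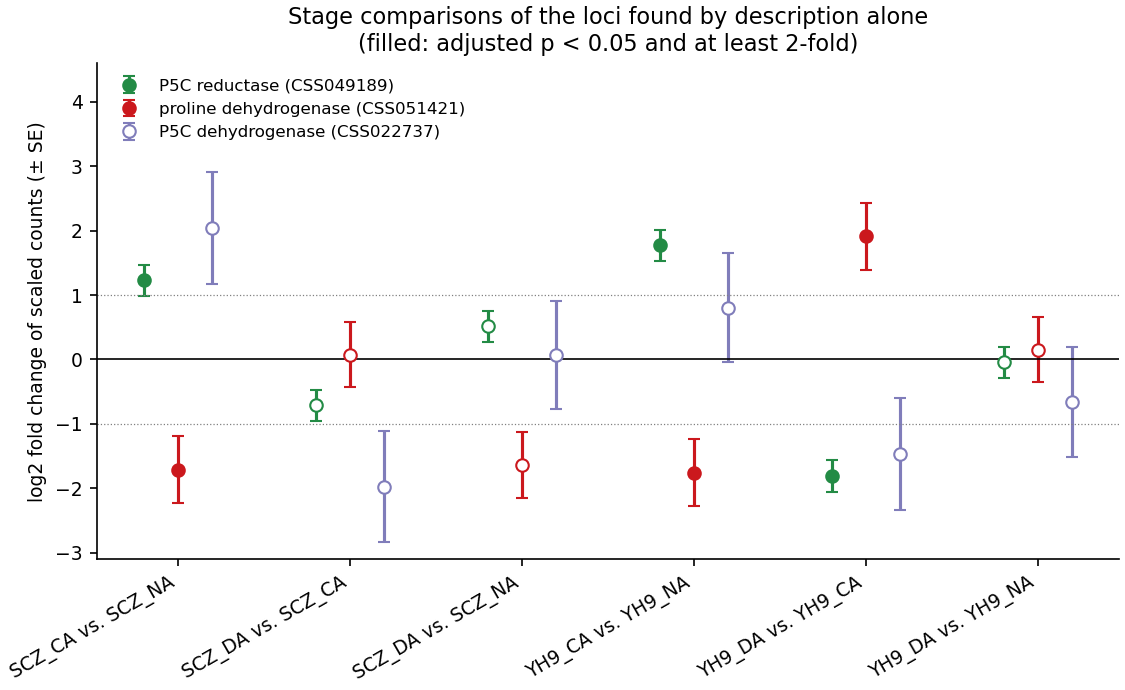
Log2 fold changes with their SE for the 3 loci found by description alone, in 6 stage comparisons; filled points were called at an adjusted p below 0.05 and 2-fold, and dotted lines mark 2-fold. P5CR lies at 1.23 and 1.77 and ProDH at −1.71 and −1.76 at CA vs. NA, and both points turn round at YH9_DA vs. YH9_CA.

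P5CDH ends proline breakdown, and the locus CSS005626 was found at high level in SCZ_CA leaves only. It had 0.0212, 0.10 and 0 FPKM in SCZ_NA, 5.72, 27.7 and 8.34 FPKM in SCZ_CA and 0.229, 0.144 and 0.126 FPKM in SCZ_DA. The YH9 leaves had 0.237, 0.150 and 0.225 FPKM at NA, 0.922, 0.444 and 0.609 FPKM at CA and 0.353, 0.297 and 0.329 FPKM at DA. The SCZ_CA libraries held 1214, 4760 and 2035 estimated counts, against 4, 22 and 0 in SCZ_NA. The 3 YH9_CA libraries were also above all other YH9 libraries, at a small part of the SCZ_CA level. These values chose the locus, and no test is drawn from them.

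The fitted log2 fold change of CSS005626 was 8.54 for SCZ_CA vs. SCZ_NA, and its size depended on how the near-zero SCZ_NA values were handled. It was 3.55 on log2(FPKM + 1), 6.37 on log2(FPKM + 0.1), 7.62 without SCZ_CA replicate 2 and 10.26 without SCZ_NA replicate 2. The value was 1.63 for YH9_CA vs. YH9_NA and −6.52 for SCZ_DA vs. SCZ_CA, the latter from −6.91 to −5.59 with a library left out. After the return to warmth, SCZ_DA averaged 0.166 ± 0.0553 FPKM, against 0.326 ± 0.0277 FPKM in YH9_DA (SD, n = 3 each).

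The other P5CDH locus, CSS022737, lies on Scaffold3355 from 111448 to 112871 on the minus strand. In SCZ it had 0.923, 1.28 and 0.590 FPKM at NA, 1.37, 8.61 and 0.869 FPKM at CA and 1.79, 0.208 and 0.996 FPKM at DA. In YH9 it had 0.561, 0.881 and 0.206 FPKM at NA, 1.26, 0.938 and 0.818 FPKM at CA and 0.592, 0.410 and 0.167 FPKM at DA. One library, SCZ_CA replicate 2, was high, and the rest of SCZ_CA overlapped with SCZ_NA. The log2 fold change for SCZ_CA vs. SCZ_NA was 2.04 (SE 0.86, adjusted p = 0.0688), and 0.37 (adjusted p = 0.739) without that library. It was called in that comparison without SCZ_CA replicate 1 (adjusted p = 0.0419), SCZ_CA replicate 3 (0.0375) or SCZ_DA replicate 2 (0.0472). With all libraries in the fit, edgeR called CSS022737 in 0 comparisons.

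One more P5CDH locus, CSS004593, is described as "P5CDH1" and so escaped the wording of the rule. It was added after its values were seen, so its calls and p-values below only describe these libraries. In SCZ it had 4.22, 15.8 and 16.5 FPKM at NA, 44.3, 18.6 and 21.6 FPKM at CA and 19.6, 19.3 and 20.97 FPKM at DA. In YH9 this locus had 7.05, 9.86 and 10.3 FPKM at NA, 22.0, 25.3 and 37.6 FPKM at CA and 16.9, 18.1 and 17.7 FPKM at DA. It was the most abundant P5CDH locus in every library except SCZ_CA replicate 2, and its CA libraries lay above all NA libraries in each cultivar. CSS004593 was up-regulated in both, by 1.41 for SCZ_CA vs. SCZ_NA (SE 0.35, adjusted p = 0.00479) and by 1.61 for YH9_CA vs. YH9_NA (SE 0.35, adjusted p = 0.00284). Without SCZ_CA replicate 2, which was the lowest of its group at this locus, the first value was 1.64. Over all libraries left out that value ranged from 1.02, near the 2-fold limit, to 1.67. Its call was lost where only the groups compared set the spread (1.44, adjusted p = 0.0727). The cultivars were not shown to differ at this locus (interaction −0.20, SE 0.49, adjusted p = 0.873).

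**Figure D3:**
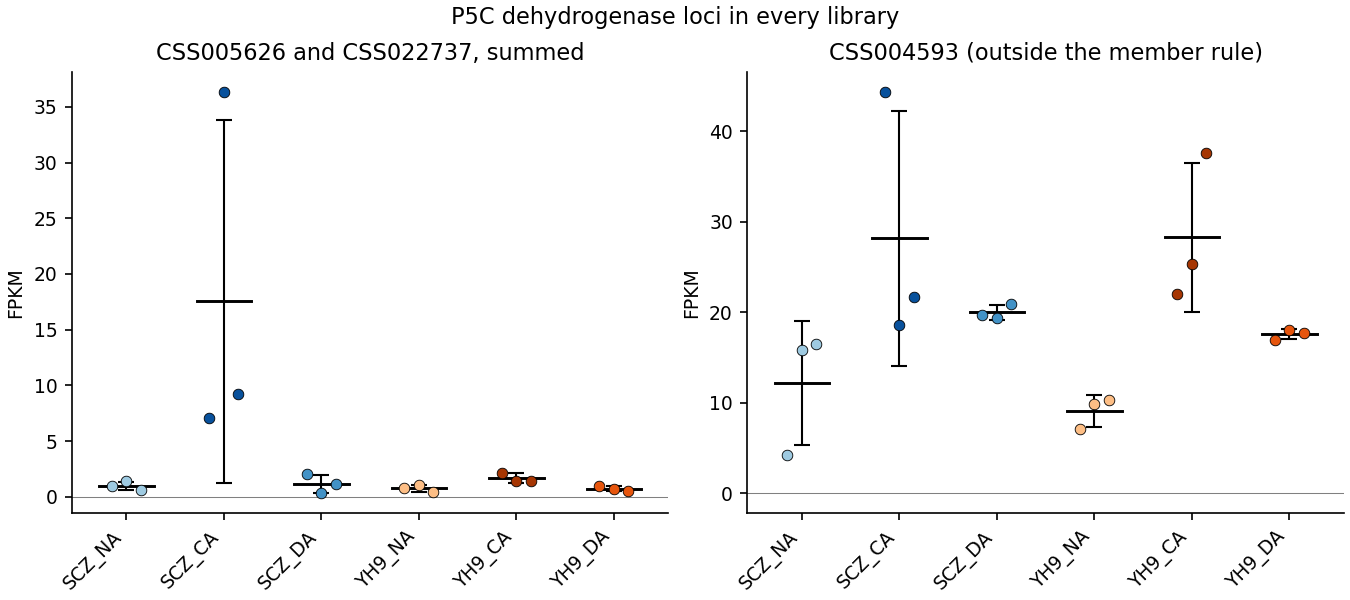
FPKM of the P5CDH loci in each library: CSS005626 and CSS022737 summed at left, and CSS004593, outside the member rule, at right; points are libraries, long bars group means and whiskers 1 SD (n = 3). The left pair is high in SCZ_CA alone, whereas CSS004593 is at 18.6 to 44.3 FPKM in SCZ_CA and at 22.0 to 37.6 FPKM in YH9_CA.

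Of the 3 loci found by description alone that were tested, 1 was up-regulated and 1 down-regulated in SCZ_CA vs. SCZ_NA, where 15% of all loci tested were called higher and 19.1% lower (34.1% in all). YH9_CA vs. YH9_NA gave the same counts, 1 and 1, against 11.7% and 14.2% of all loci (25.8% in all). YH9_DA vs. YH9_CA had 1 higher, ProDH, and 1 lower, P5CR, against 13.1% and 10.4% (23.5% in all). With shares of this size over all loci, a few calls among 3 loci are not particular to proline.

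In the other comparisons 0 of the 3 loci were called by edgeR. In SCZ_DA vs. SCZ_CA, where 15.6% of all loci were called higher and 13.5% lower (29.1% in all), 2 had an unadjusted p below 0.05, and DESeq2 called 1 and limma 0. In SCZ_DA vs. SCZ_NA, with 1.45% higher and 1.58% lower (3.03% in all), 2 had an unadjusted p below 0.05, and DESeq2 called 1, ProDH, and limma 0. In YH9_DA vs. YH9_NA, with 0.0551% higher and 0.32% lower (0.376% in all), 0 had an unadjusted p below 0.05, and both other tools called 0.

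Between the cultivars at one stage, edgeR called 0 of the 3 loci throughout. In SCZ_NA vs. YH9_NA (9.9% of all loci higher and 9.29% lower, 19.2% in all), 0 had an unadjusted p below 0.05, and 0 were called by DESeq2 and limma. In SCZ_CA vs. YH9_CA (12.8% higher and 14.4% lower, 27.3% in all), 2 had an unadjusted p below 0.05, with 1 call by DESeq2, CSS022737, and 0 by limma. In SCZ_DA vs. YH9_DA (11.4% higher and 12.6% lower, 24% in all), 2 had an unadjusted p below 0.05 and both other tools called 0. ProDH CSS051421 was 3.81 ± 1.43 FPKM in SCZ_DA and 9.42 ± 2.76 FPKM in YH9_DA (SD, n = 3 each), and did not overlap, but the difference of −1.11 on the log2 scale was not called (SE 0.51, adjusted p = 0.12).

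The interaction of cultivar and stage was called at 0 of the 3 loci by edgeR. For CA vs. NA (1.25% of all loci higher and 1.27% lower, 2.52% in all), 0 had an unadjusted p below 0.05 and DESeq2 and limma called 0. For DA vs. CA (0.796% higher and 0.924% lower, 1.72% in all), 2 had an unadjusted p below 0.05, and DESeq2 and limma each called 1, which was P5CR.

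Synthesis and breakdown were set side by side as the ratio of P5CS FPKM to the summed ProDH FPKM of the same library. In SCZ the ratio was 0.719, 2.02 and 0.761 at NA, 7.97, 11.1 and 12.9 at CA and 3.01, 5.80 and 2.00 at DA. All SCZ_CA libraries were above all other SCZ libraries, SCZ_CA replicate 2 being the middle one, and the lowest SCZ_DA library was just under the highest SCZ_NA library. In YH9 it was 1.87, 2.43 and 1.51 at NA, 3.70, 4.94 and 10.1 at CA and 1.43, 1.54 and 2.33 at DA. Each YH9_CA library was above all YH9_NA and YH9_DA libraries, and the highest YH9_CA library was within the SCZ_CA range. In YH9 the P5CS level was much the same at each stage, so the ratio followed ProDH there. P5CS had been chosen on its values, and the ratio is a description.

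**Figure D4:**
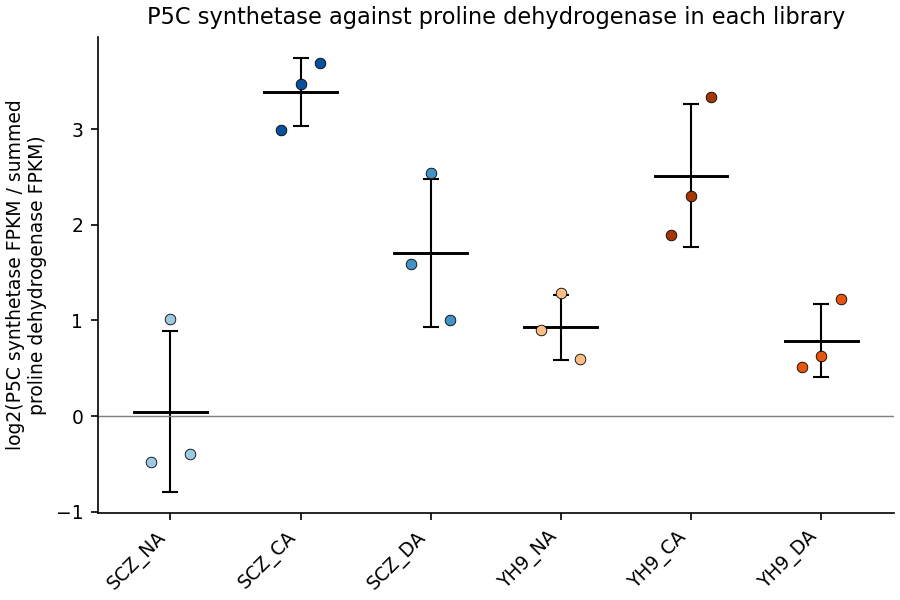
Log2 ratio of P5CS FPKM to the summed FPKM of both ProDH loci within each library, by cultivar and stage; points are libraries, long bars group means and whiskers 1 SD (n = 3). CA libraries lie above NA and DA in each cultivar, with SCZ_CA between 2.99 and 3.69 and YH9_CA between 1.89 and 3.34.

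Among tested loci with a named product, those with profiles most like the picked loci were sought over the 18 libraries. The measure was the root mean square difference of centred log2(FPKM + 1). For CSS022477, whose own values had a root mean square of 0.605, the nearest were a calcium-dependent protein kinase 14, CSS001669, at 0.246 and a ketoacyl-ACP synthase I, CSS045652, at 0.275. A glycosyltransferase, CSS035075, and a second calcium-dependent protein kinase 14, CSS033913, were both at 0.276, and a phosphoglycerate mutase-like locus, CSS012400, at 0.277. The kinase CSS001669 averaged 51.7 FPKM in SCZ_CA, against 15.6 FPKM in SCZ_NA, and 26.7 FPKM in YH9_CA, against 17.1 FPKM in YH9_NA.

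For CSS005626, with a root mean square of its own of 1.29, the nearest was a 14-3-3 protein 1, CSS032780, at 0.424. It averaged 10.4 FPKM in SCZ_CA and at most 0.275 FPKM in any other group. An ATPase of the AAA family, CSS045423, followed at 0.484, a MYB transcription factor, CSS034466, at 0.519, a sucrose transporter 6, CSS033300, at 0.522 and a heterogeneous nuclear ribonucleoprotein F, CSS015400, at 0.599. These genes were high in SCZ_CA as CSS005626 was, and the points share the same libraries.

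Glutamate is the substrate of P5CS, and among the loci that supply or spend it several were down-regulated in the cold and 0 up-regulated. The list held 14 loci of glutamine synthetase, glutamate synthase and glutamate dehydrogenase, all tested. In SCZ_CA vs. SCZ_NA, 6 were down-regulated and 0 up-regulated (median log2 fold change −0.82, against −0.06 over all loci), where 19.1% of all loci were called lower and 15% higher. In YH9_CA vs. YH9_NA, 8 were down-regulated and 0 up-regulated (median −1.31, against −0.01 over all loci), where the shares over all loci were 14.2% lower and 11.7% higher. Signs were shared between the cultivars at 13 of the 14, with 9 lower and 4 higher in both. The list turned round in the warmth, with 5 up-regulated and 0 down-regulated in SCZ_DA vs. SCZ_CA (15.6% higher and 13.5% lower over all loci) and 8 and 0 in YH9_DA vs. YH9_CA (13.1% and 10.4%). The count of 6 was 2 where only the 2 groups compared set the spread. Over all alternatives and libraries left out, 2 to 7 were down-regulated and 0 to 1 up-regulated in SCZ_CA vs. SCZ_NA, and 7 to 9 and 0 to 1 in YH9_CA vs. YH9_NA.

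Glutamate dehydrogenase, which links glutamate with 2-oxoglutarate and ammonium, gave the most marked values. The glutamate dehydrogenase 2 locus CSS004444 had 0, 0.697 and 0.0999 FPKM in SCZ_CA, against 1.39, 4.27 and 2.85 FPKM in SCZ_NA. In YH9 it had 1.15, 0.530 and 0.659 FPKM at CA, against 4.41, 5.17 and 12.8 FPKM at NA. The log2 fold changes of CSS004444 were −3.23 in SCZ (SE 0.92, adjusted p = 0.0111) and −3.25 in YH9 (SE 0.91, adjusted p = 0.0128), with no overlap in either cultivar. The YH9 call was lost without YH9_NA replicate 3 (adjusted p = 0.0504), YH9_CA replicate 2 (0.0545) or YH9_CA replicate 3 (0.0505), and the SCZ call where only its 2 groups set the spread (0.127).

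A second glutamate dehydrogenase, CSS041569, was abundant and steadier. It averaged 7.51 ± 2.34 FPKM in SCZ_CA, against 26.9 ± 1.47 FPKM in SCZ_NA, and 7.84 ± 1.62 FPKM in YH9_CA, against 32.4 ± 3.86 FPKM in YH9_NA (SD, n = 3 each). The log2 fold changes of CSS041569 were −1.72 in SCZ (SE 0.28, adjusted p = 0.00022) and −2.08 in YH9 (SE 0.28, adjusted p = 8.7e-05). A glutamine synthetase, CSS050989, which makes glutamine from glutamate, fell by 1.51 in SCZ (SE 0.38, adjusted p = 0.00534) and by 2.00 in YH9 (SE 0.41, adjusted p = 0.00184) on the log2 scale. Its SCZ call was lost without SCZ_NA replicate 1 (−0.93, under 2-fold) and where only the groups compared set the spread (adjusted p = 0.0718), and its YH9 call by limma on log2(FPKM + 1) (−0.95). The level of CSS050989 differed between the cultivars at every stage, with 17.7 ± 6.74 FPKM in SCZ_NA, against 1.78 ± 0.446 FPKM in YH9_NA.

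**Figure D5:**
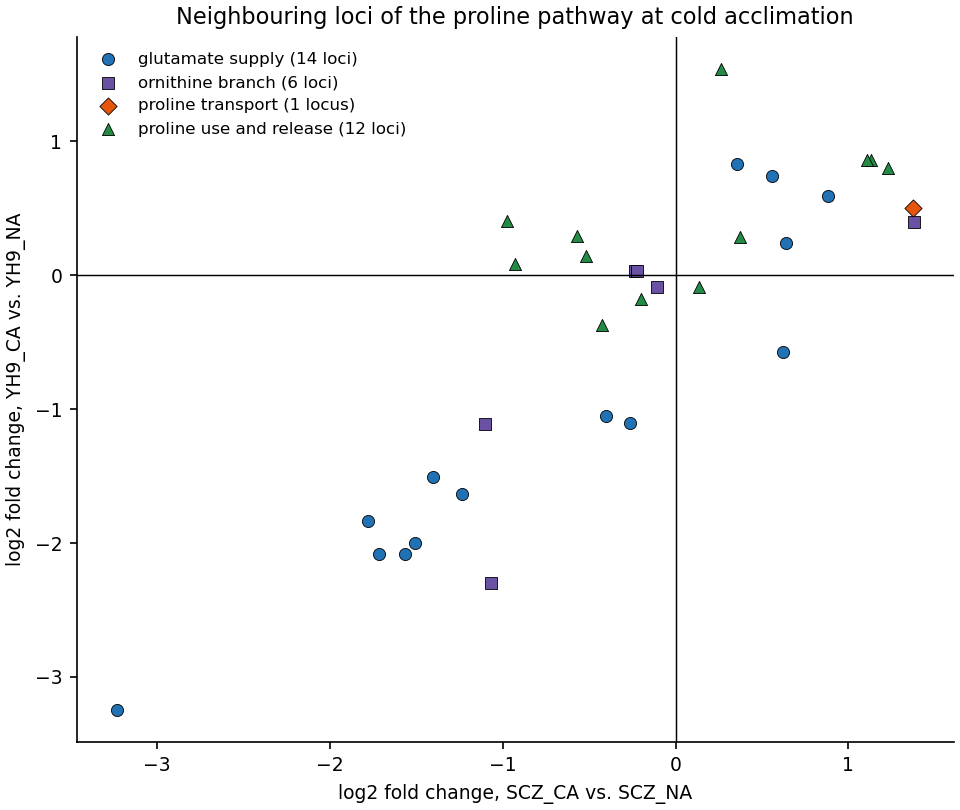
Log2 fold changes at CA vs. NA in SCZ (horizontal) and YH9 (vertical) for the tested loci of 4 neighbouring lists, 1 point per locus; lines mark 0. Of the 14 glutamate supply loci 9 lie below 0 in both, and the proline transporter lies at 1.37 in SCZ and 0.50 in YH9.

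Ornithine offers another route to P5C through ornithine aminotransferase. The single locus of that enzyme, CSS010407, averaged 9.89 ± 3.81 FPKM in SCZ_CA, against 11.8 ± 1.37 FPKM in SCZ_NA, and 13.2 ± 0.721 FPKM in YH9_CA, against 13.7 ± 0.658 FPKM in YH9_NA (SD, n = 3 each). Its log2 fold changes were −0.11 in SCZ (SE 0.22, adjusted p = 0.726) and −0.09 in YH9 (SE 0.22, adjusted p = 0.801), and without SCZ_CA replicate 2 the first was 0.15.

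The list of this branch held 6 loci, since its wording also took 3 acetylornithine aminotransferases and 2 arginases. The former make acetylornithine, from which ornithine is formed by a further enzyme, and the latter release ornithine from arginine. In SCZ_CA vs. SCZ_NA 1 was up-regulated and 1 down-regulated (median −0.23, with 15% and 19.1% called over all loci), and in YH9_CA vs. YH9_NA 0 and 1 (median −0.03, with 11.7% and 14.2%). These counts are near the shares over all loci. The arginase CSS003947 had 28.9, 47.4 and 44.3 FPKM in SCZ_CA, against 18.3, 16.6 and 15.7 FPKM in SCZ_NA. Its log2 fold change was 1.38 there (SE 0.26, adjusted p = 0.00076) and 0.40 in YH9 (SE 0.26, adjusted p = 0.255). The acetylornithine aminotransferase CSS033920 fell by 1.10 in SCZ (adjusted p = 0.00437) and by 1.11 in YH9 (adjusted p = 0.00559) on the log2 scale. The SCZ call was lost without SCZ_NA replicate 1 (−0.94) or SCZ_CA replicate 1 (−0.91), both under 2-fold, and where only the groups compared set the spread (adjusted p = 0.067). The YH9 call of CSS033920 was lost without YH9_CA replicate 3 (−0.92) and by limma on log2(FPKM + 1) (−0.89).

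Proline moves between cells and tissues through proline transporters, of which the table named 1. CSS015198 had 9.81, 3.77 and 6.65 FPKM in SCZ_CA, against 4.01, 2.54 and 1.52 FPKM in SCZ_NA, and the groups overlapped at 1 library. It was up-regulated by 1.37 (SE 0.40, adjusted p = 0.0122), a call lost without SCZ_NA replicate 2 (adjusted p = 0.0505) or SCZ_CA replicate 1 (0.0509) and where only its 2 groups set the spread (0.117). In YH9 it averaged 7.49 ± 0.227 FPKM at CA, against 5.17 ± 1.18 FPKM at NA (SD, n = 3 each), which gave 0.50 on the log2 scale (SE 0.39, adjusted p = 0.347). On return to warmth CSS015198 fell by 1.52 in SCZ (SE 0.40, adjusted p = 0.00822). For YH9_DA vs. YH9_CA the value was −1.09 (SE 0.40, adjusted p = 0.0483), and the adjusted p was above 0.05 in most fits that left a library out, under median-of-ratios scaling and with no filter. The cultivars were not shown to differ at CA vs. NA (interaction 0.87, SE 0.55, adjusted p = 0.426).

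Leaf markers moved with the cold, so the make-up of the libraries differed between stages. The 42 loci matched by photosynthetic phrases (small subunits of Rubisco, chlorophyll-binding proteins, carbonic anhydrases) summed to between 5303 and 14406 FPKM in SCZ_CA, against 39050 to 48942 FPKM in SCZ_NA. In YH9 they summed to between 10805 and 15618 FPKM at CA, against 34671 to 44644 FPKM at NA. At DA these sums were 18424 to 30348 FPKM in SCZ and 17909 to 21344 FPKM in YH9, still below all NA libraries of the same cultivar. The lowest sum was that of SCZ_CA replicate 2, the library that was highest in P5CS, CSS005626 and CSS022737. Sums of 9 xylem and wall loci were 1.41 to 8.80 FPKM in SCZ_CA and 12.4 to 62.4 FPKM in SCZ_NA. Those of 15 loci of dividing cells were 113 to 165 FPKM in SCZ_CA and 76.9 to 177 FPKM in SCZ_NA, and those of 19 loci of senescing leaves 75.2 to 193 FPKM in SCZ_CA and 148 to 252 FPKM in SCZ_NA. In YH9 the dividing-cell sums did not overlap, with 121 to 175 FPKM at CA and 90.2 to 96.9 FPKM at NA. The xylem and wall sums were 6.26 to 17.9 FPKM in YH9_CA and 10.8 to 74.8 FPKM in YH9_NA. Those of senescing leaves were 102 to 165 FPKM in YH9_CA and 145 to 177 FPKM in YH9_NA. Of 22 marker phrases, 7 matched no locus. In such bulk libraries fewer cells of a type and less RNA per cell cannot be told apart, and the part of these shifts in the proline loci was not tested.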

How the data were processed

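Leaf RNA of 2 tea cultivars at 3 stages was sequenced by the authors as 18 libraries, and the groups were taken from the sample labels. Per the submitters' processing notes, cutadapt 1.9, HISAT2 2.2.1 and StringTie 2.1.6 were used, and the role of edgeR and DESeq2, also listed, is not given in the sources used here. The deposited FPKM values were made by the authors and used as they stand. The estimated counts per locus were also deposited by the authors, in whole numbers. The program that wrote them is not given in the sources used here.

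The test was the quasi-likelihood F test of edgeR 4.0.16 (R 4.3.3), fitted with 1 mean per group over all 18 libraries and TMM factors from 0.795 to 1.16. Loci with at least 1 FPKM in at least 3 libraries were tested, 29019 of 41021. The thresholds were an adjusted p of 0.05 and 2-fold. SEs were back-calculated from F, as the absolute log2 change over the root of F. Alternatives were DESeq2 1.42.0, median-of-ratios scaling, no filter, the spread of only the groups compared, a replicate block, limma 3.58.1 on log2(FPKM + 1) and on log2(FPKM + 0.1), and each library left out. The fits were also run on counts simulated with the spread of these data and changes planted in SCZ_CA alone. The outcome is not given here, and no call above rests on it.

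The members and lists were chosen with earlier results of these data known. Every locus the rule finds is described, and of each neighbouring list the 3 with the largest change among those called at CA vs. NA are named. CSS004593, CSS010407 and the remaining contrasts of CSS015198 were added by hand. Likeness was the smallest root mean square difference over the 18 libraries, and 5 loci are named for each picked locus. Tested loci described as hypothetical, uncharacterized, unknown or unnamed, or without a description, were left out of this ranking, so nearer loci may exist among them. Positions are those of the table, which gives 2 of the 6. Of the 6 loci, 0 matched an entry of the RefSeq table used, so no gene or protein sequence is shown. Metabolites and RT-qPCR values were not analysed here.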

Additional observations from a re-analysis of the deposited data

Results flagged for a closer look

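A prolyl 4-hydroxylase, CSS030835 (described as a probable prolyl 4-hydroxylase 9), was picked out because its response to stage differed between the cultivars by the interaction test. Only the 3 tested members and the named neighbouring loci were looked through for this. CSS030835 had been named for its rise in YH9, which is itself part of the interaction for CA vs. NA. Prolyl 4-hydroxylases hydroxylate proline within wall proteins. CSS030835 had 12.5, 12.8 and 9.68 FPKM in SCZ_CA, against 10.8, 10.7 and 9.91 FPKM in SCZ_NA, and 15.9, 13.3 and 15.8 FPKM in YH9_CA, against 4.71, 3.94 and 6.50 FPKM in YH9_NA. The log2 value was 0.26 in SCZ (SE 0.23, adjusted p = 0.375), while it rose in YH9 by 1.54 (SE 0.23, adjusted p = 0.00019). The difference, SCZ minus YH9, was −1.28 for CA vs. NA (SE 0.32, adjusted p = 0.0479) and 1.56 for DA vs. CA (SE 0.32, adjusted p = 0.0263). At NA it was higher in SCZ by 1.12 (SE 0.23, adjusted p = 0.00214), or 0.94 by limma on log2(FPKM + 1), 0.92 without SCZ_NA replicate 1 and 0.98 without YH9_NA replicate 2, which are under 2-fold. The first difference was not called under median-of-ratios scaling (adjusted p = 0.0564), with no filter (0.08), with a replicate block (0.06) or where only the groups compared set the spread (0.113). With 1 library left out it was called only without SCZ_DA replicate 1 or 3, and was lost in every other such fit (adjusted p from 0.0505 to 0.128). The second was not called without YH9_CA replicate 1 or 3 or any 1 of the YH9_DA libraries (adjusted p from 0.0567 to 0.0712).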

How the results depend on the processing

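Counts of called loci among the 3 found by description moved as follows. In SCZ_CA vs. SCZ_NA the 2 calls became 0 where only the groups compared set the spread, 1 by limma on log2(FPKM + 1), and 1 to 3 with a library left out. In YH9_CA vs. YH9_NA and in YH9_DA vs. YH9_CA the 2 calls became 1 to 2 with a library left out. In YH9_DA vs. YH9_CA they became 3 where only the groups compared set the spread, by P5CDH CSS022737 (−1.51, adjusted p = 0.0475). The count of 0 became 1 by DESeq2 in SCZ_DA vs. SCZ_CA, SCZ_DA vs. SCZ_NA, SCZ_CA vs. YH9_CA and the interaction for DA vs. CA. It also became 1 by limma on log2(FPKM + 1) in that interaction, and 1 in SCZ_DA vs. YH9_DA where only the groups compared set the spread. It was 0 to 1 with a library left out in SCZ_DA vs. SCZ_CA and in SCZ_CA vs. YH9_CA, the 1 being without SCZ_CA replicate 3. The cause was not tested.

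ProDH CSS051421 had a log2 fold change near 0 for SCZ_DA vs. SCZ_CA, which turned to −0.0074 with the replicate block. With a library left out it ranged from −0.21 to 0.59, and was below 0 without SCZ_CA replicate 1, SCZ_CA replicate 3 or SCZ_DA replicate 3. The ornithine aminotransferase CSS010407 ranged from −0.32 to 0.15 for SCZ_CA vs. SCZ_NA with a library left out, and was above 0 without SCZ_CA replicate 2. P5CR CSS049189 was 0.91 for SCZ_CA vs. SCZ_NA by limma on log2(FPKM + 1), under 2-fold, and had an adjusted p of 0.0518 where only the groups compared set the spread. ProDH CSS051421 then had 0.0621. P5CDH CSS022737 was called by DESeq2 for SCZ_CA vs. SCZ_NA (2.08, adjusted p = 0.0307), where SCZ_CA replicate 2 alone was high at this locus.

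Replicate numbers did not pair the libraries: same-numbered libraries of different groups correlated at −0.149 to 0.31 in their deviations, with 6 of 45 pairs over 0.1. With the replicate block the counts for the 3 loci stayed at 2 in SCZ_CA vs. SCZ_NA, YH9_CA vs. YH9_NA and YH9_DA vs. YH9_CA and at 0 elsewhere. With 3 libraries a group, and wide SDs at CSS005626, CSS022737 and P5CS in SCZ_CA, modest differences at these loci were not detectable.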

Other observations

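Among loci that use or release proline, 12 of 15 were tested. In SCZ_CA vs. SCZ_NA 3 were up-regulated and 0 down-regulated (median −0.03, with 15% and 19.1% called over all loci), and in YH9_CA vs. YH9_NA 1 and 0 (median 0.29, with 11.7% and 14.2%). The prolyl 4-hydroxylase 7 locus CSS023004 averaged 30.7 ± 3.99 FPKM in SCZ_CA, against 14.9 ± 4.69 FPKM in SCZ_NA (SD, n = 3 each), or 1.23 higher on the log2 scale (SE 0.18, adjusted p = 0.0001). In YH9 its value was 0.80 (SE 0.18, adjusted p = 0.00347), under 2-fold. The prolyl 4-hydroxylase 10 locus CSS027026 averaged 36.4 ± 6.16 FPKM in SCZ_CA, against 18.9 ± 5.87 FPKM in SCZ_NA, a change of 1.13 (SE 0.20, adjusted p = 0.00041), or 0.94 by limma on log2(FPKM + 1) and 0.97 on log2(FPKM + 0.1), both under 2-fold. In YH9_CA it averaged 35.2 ± 2.44 FPKM, against 19.1 ± 3.96 FPKM in YH9_NA, a change of 0.86 (SE 0.20, adjusted p = 0.0038). The third call in SCZ was a proline iminopeptidase, which frees proline from peptides. By limma on log2(FPKM + 1) the 3 calls in SCZ were 1.

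Besides the members, 2 loci were annotated to arginine and proline metabolism in KEGG, both agmatine deiminases, which act in polyamine synthesis from arginine. CSS037549 had 0.277, 0.462 and 0.140 FPKM in SCZ_CA, against 0.721, 1.34 and 1.12 FPKM in SCZ_NA, with no overlap. It fell by 1.70 on the log2 scale (SE 0.55, adjusted p = 0.0223), and the call was lost without SCZ_NA replicate 2 (adjusted p = 0.0585), SCZ_CA replicate 1 (0.0577) or SCZ_CA replicate 3 (0.0764), where only the groups compared set the spread (0.107), and by limma on log2(FPKM + 1) (−0.67, under 2-fold). In YH9 its value was −0.72 (SE 0.54, adjusted p = 0.33).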
